A study of Mus musculus with 9 samples.

Results

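Ribonucleotide reductase, thymidylate and cytidine enzymes were followed as 9 genes: Rrm1, Rrm2, Rrm2b, Tyms, Dut, Tk1, Dck, Ctps and Umps. Each was found by its exact symbol, and all 9 of the 24012 genes listed in the deposited table were matched and passed the filter on low values in every comparison. These enzymes supply the deoxynucleotides of DNA replication and repair. Ribonucleotide reductase removes the 2′ hydroxyl group of ribonucleoside diphosphates, using a large catalytic subunit (Rrm1) paired with a small subunit that carries an iron centre and a tyrosyl radical. Rrm2 is the small subunit of dividing cells and Rrm2b the p53-inducible one, which serves DNA repair and mitochondrial DNA in cells outside S phase. Umps and Ctps make uridine and cytidine nucleotides, Dut and Tyms lead from dUTP to dTMP, and Tk1 and Dck phosphorylate salvaged deoxynucleosides. Pancreatic tumours are commonly treated with gemcitabine, a cytidine analogue that Dck activates and whose diphosphate inhibits ribonucleotide reductase.

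The cells were mouse pancreatic ductal adenocarcinoma (PDAC) cells, recovered from lung tumours after tail vein injection. All groups share the genotype written SIRT6F/F/p48-Cre/p53F/+KrasL/+, in which p48-Cre is a pancreatic driver of recombination, as well as GFP and a Gstt1-mCherry reporter. The 3 groups were mCherryLow (libraries 1, 5 and 6) and mCherryHigh (1, 5 and 6), sorted at 6 weeks, and DTC (1, 2 and 3), sorted on GFP at 5 days. The labels do not tie libraries to separate mice, so p-values measure only the spread between these libraries, which may be technical. The label descriptions carry a code series that all DTC libraries share with no other library, so series, time, gate and group cannot be told apart for DTC.

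Expression is given as CPM, the reads of a gene scaled to a common library total. Library totals ran from 643748 reads in mCherryHigh 1 to 11861241 reads in mCherryLow 6, and the 3 DTC libraries held 1313868, 2052623 and 923988 reads. The reporter gene Gstt1 followed the sort, at 15.1, 11.9 and 29.4 CPM in mCherryLow and 60.6, 48.4 and 50.9 CPM in mCherryHigh. Sirt6 transcripts were counted in every library, from 3.41 CPM in DTC 2 to 24.9 CPM in mCherryHigh 1. One DTC library stood apart from its group: the summed level of 7 ductal epithelial markers was 5235 CPM in DTC 1, 5888 CPM in DTC 2 and 384 CPM in DTC 3. Krt8, Krt18 and Krt19 made up most of this sum and, like Cdh1, were lowest in DTC 3. Epcam (16.2 CPM) and Muc1 (18.4 CPM) were not lowest there, as DTC 2 held less of both (4.38 and 6.82 CPM). The ductal claudin Cldn4 was at 0.761 CPM, which is 1 read, in DTC 1 and at 0 in DTC 2 and DTC 3, whereas the keratin Krt8 was counted in all of them, from 76.8 to 1878 CPM. Gm10800, Gm10801 and Lars2 together took 11.8% of reads in DTC 1, 3.47% in DTC 2 and 15.1% in DTC 3, against 0.127% to 0.585% in the 6 mCherry-sorted libraries. Differences of the 9 genes between DTC and the other groups are therefore given with and without DTC 3, as are counts over gene lists where they change.

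Promoter sequence was available for 8 of the 9 genes (RefSeq, GRCm38.p6), as the 250 bases before the transcription start. The windows of Rrm2, of its partner Rrm1 and of Dck are shown because Rrm2 and Dck had the most negative differences between the mCherry gates, while Rrm1 was at -0.19 there on the log2(CPM + 1) scale. They lie at chr12:24708004-24708253 (Rrm2), chr7:102441445-102441694 (Rrm1) and chr5:88764763-88765012 (Dck), all on the plus strand. Capitals mark CCAAT and the GC box GGGCGG, which reads CCGCCC on the opposite strand.
Rrm2: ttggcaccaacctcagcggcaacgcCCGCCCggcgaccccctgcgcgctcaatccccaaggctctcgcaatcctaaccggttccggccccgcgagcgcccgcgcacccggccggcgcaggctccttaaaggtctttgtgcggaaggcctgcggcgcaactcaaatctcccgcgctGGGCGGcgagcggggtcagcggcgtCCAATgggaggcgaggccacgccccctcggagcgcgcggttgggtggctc
Rrm1: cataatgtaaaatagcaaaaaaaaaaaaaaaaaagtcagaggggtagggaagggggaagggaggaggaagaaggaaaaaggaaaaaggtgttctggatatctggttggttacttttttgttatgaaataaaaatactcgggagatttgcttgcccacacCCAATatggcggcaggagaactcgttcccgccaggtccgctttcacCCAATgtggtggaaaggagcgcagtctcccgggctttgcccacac
Dck: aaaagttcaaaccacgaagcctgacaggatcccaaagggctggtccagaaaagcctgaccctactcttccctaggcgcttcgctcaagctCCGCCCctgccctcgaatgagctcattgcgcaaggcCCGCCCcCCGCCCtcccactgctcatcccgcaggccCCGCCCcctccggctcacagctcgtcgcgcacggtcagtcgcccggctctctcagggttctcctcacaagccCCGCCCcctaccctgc
The Rrm2 window held 1 CCAAT and 2 GC boxes, the Rrm1 window 2 CCAAT and 0 GC boxes, and the Dck window 0 CCAAT and 5 GC boxes. Matches were sought on both strands, and none overlapped another in these windows. Over all 32851 promoter windows of that length, 33.8% held CCAAT and 32.7% held GGGCGG. The E2F-like letters TTTNNCGC were in none of the windows of these genes and in 4.28% of all windows. Of the remaining genes, Dut, Tyms, Tk1, Umps and 1 of the 2 Ctps windows held 1 GC box each and no CCAAT.

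Among the subunits of ribonucleotide reductase, Rrm2 had the highest group mean of the 9 transcripts per kilobase, at 169, 69.6 and 57.0 CPM per kilobase in mCherryLow, mCherryHigh and DTC. Its rank in DTC rested on DTC 2: Dut averaged 55.5 CPM per kilobase there and was above Rrm2 in DTC 1 and DTC 3, and without DTC 2 the means were 27.4 for Rrm2 and 51.9 for Dut. Rrm2 stood at 302, 464 and 345 CPM in mCherryLow 1, 5 and 6, at 87.0, 257 and 114 CPM in mCherryHigh 1, 5 and 6, and at 89.8, 255 and 30.3 CPM in DTC 1, 2 and 3. Every mCherryLow library lay above every other library, and the ranges of mCherryHigh and DTC overlapped. The lowest value, in DTC 3, rests on 28 reads (95% exact Poisson interval 20.1 to 43.8 CPM). Such intervals cover counting error only.

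Rrm2b stood at 15.6, 31.7 and 55.0 CPM in mCherryLow, at 21.7, 25.3 and 57.4 CPM in mCherryHigh and at 89.05, 56.5 and 108 CPM in DTC. All DTC values were above all mCherryLow values, while mCherryHigh 6 lay just above DTC 2. Per kilobase, Rrm2b was the lowest of the 9 in both mCherry groups (means 7.48 and 7.63 CPM per kilobase) and averaged 18.5 CPM per kilobase in DTC. The large subunit Rrm1 stood at 108, 292 and 128 CPM in mCherryLow, at 186, 152 and 95.5 CPM in mCherryHigh and at 119, 153 and 31.4 CPM in DTC. Its 3 groups overlapped, with mCherryLow 5 highest and DTC 3 lowest.

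The balance of the small subunits differed between libraries. The CPM of Rrm2 divided by that of Rrm2b was 19.4, 14.6 and 6.27 in mCherryLow, 4.0, 10.2 and 1.99 in mCherryHigh, and 1.01, 4.51 and 0.28 in DTC. DTC 3 was thus the one library with more Rrm2b than Rrm2 reads, and DTC 1 had nearly equal numbers. Equal reads are not equal transcripts, as the Rrm2b transcript has 4561 bases and that of Rrm2 2193. Per kilobase, Rrm2 and Rrm2b were at 41.0 and 19.5 CPM in DTC 1 and at 13.8 and 23.7 CPM in DTC 3. On the log2(CPM + 1) scale the Rrm2 to Rrm2b difference was 3.55 ± 0.82 in mCherryLow, 2.07 ± 1.16 in mCherryHigh and 0.12 ± 1.98 in DTC (SD, n = 3 each). DTC lay below mCherryLow without overlap, by -3.43 (two-sided exact permutation p = 0.1, the smallest that 3 libraries against 3 allow, and 0.3 after adjustment over 6 ratio tests). Without DTC 3 that difference was -2.47. mCherryHigh minus mCherryLow was -1.47 (exact permutation p = 0.2, adjusted 0.3) and DTC minus mCherryHigh was -1.95 (exact permutation p = 0.3, adjusted 0.36), with overlapping groups. The latter was -0.99 without DTC 3.

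In the thymidylate branch, Dut, the pyrophosphatase that turns dUTP into dUMP and keeps uracil out of DNA, was at 41.4, 63.8 and 47.5 CPM in mCherryLow and at 54.4, 41.5 and 48.3 CPM in mCherryHigh. In DTC it was at 120.3, 122 and 82.3 CPM, above all 6 mCherry libraries. Dut also had one of the narrowest spreads, the highest library of a group being at most 1.54 times the lowest. Tyms, which methylates dUMP to dTMP, was at 45.8, 176 and 43.5 CPM in mCherryLow, at 146, 58.8 and 31.0 CPM in mCherryHigh and at 155, 168 and 101 CPM in DTC. Single libraries set its mCherry means: mCherryLow 5 was 4.05 times the lowest of its group and mCherryHigh 1 was 4.71 times the lowest of its own.

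The salvage kinases had different patterns. Tk1, the S-phase thymidine kinase, was at 73.6, 72.2 and 49.1 CPM in mCherryLow and at 32.6, 45.5 and 47.4 CPM in mCherryHigh, so these groups did not overlap, though mCherryLow 6 and mCherryHigh 6 were close. In DTC, Tk1 was at 85.2, 97.4 and 17.3 CPM, with the highest and the lowest value of the series in 1 group. Dck, the deoxycytidine kinase, was at 84.3, 90.0 and 42.9 CPM in mCherryLow, at 17.1, 40.7 and 23.1 CPM in mCherryHigh and at 38.1, 90.1 and 13.0 CPM in DTC. Every mCherryHigh value of Dck was under every mCherryLow value, and DTC spanned both. The 2 lowest Dck values rest on 11 reads (mCherryHigh 1, interval 8.53 to 30.6 CPM) and 12 reads (DTC 3, interval 6.71 to 22.7 CPM). The Tk1 to Dck difference of log2(CPM + 1) was 0.79 higher in mCherryHigh than in mCherryLow (exact permutation p = 0.2, adjusted 0.3) and 0.65 higher in DTC than in mCherryLow (exact permutation p = 0.2, adjusted 0.3). DTC and mCherryHigh differed by -0.14 (exact permutation p = 0.9, adjusted 0.9). Without DTC 3 the latter 2 values were 0.73 and -0.059.

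Umps and Ctps stand on either side of UTP. Umps, which makes UMP in the last steps of de novo synthesis, was at 125, 151 and 71.4 CPM in mCherryLow, at 83.9, 73.8 and 45.3 CPM in mCherryHigh and at 89.05, 142 and 43.3 CPM in DTC. Its groups overlapped, with DTC 3 lowest of all. Ctps, which aminates UTP to CTP, was at 47.8, 89.4 and 49.6 CPM in mCherryLow, at 43.5, 52.1 and 36.3 CPM in mCherryHigh and at 94.4, 154 and 29.2 CPM in DTC. DTC 1 and DTC 2 were above all other libraries for Ctps and DTC 3 was below them all.

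**Figure D1:**
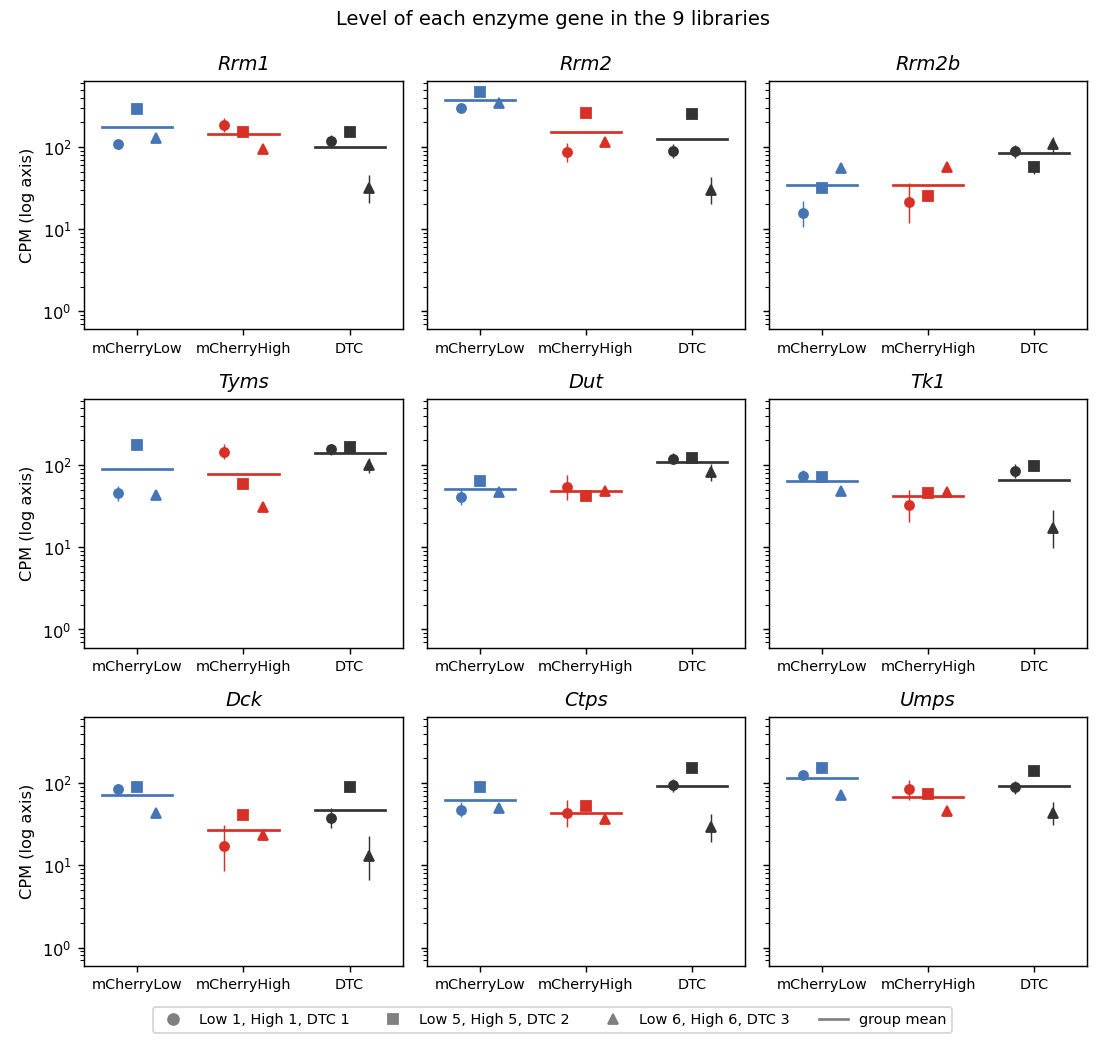
CPM of each gene (log axis) in the 9 libraries, with bars for the 95% exact Poisson interval of single libraries and lines for group means. Markers set libraries of different groups side by side by number or position and do not pair them. Rrm2 is highest in all mCherryLow libraries (302 to 464 CPM), Dut in all DTC libraries (82.3 to 122 CPM), and DTC 3 is the lowest DTC library in 8 of 9 panels.

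The DTC libraries kept one order across most of the set. DTC 2 was highest and DTC 3 lowest for 8 of the 9 genes, and Rrm2b had the reverse order, with DTC 2 lowest and DTC 3 highest. The highest DTC library exceeded the lowest 8.41 times for Rrm2, 6.94 times for Dck, 5.63 times for Tk1 and 5.27 times for Ctps. For Tyms and Dut the factor was 1.67 and 1.49. The summed level of the 9 genes was 881, 1238 and 456 CPM in DTC 1, 2 and 3, against 843, 1431 and 831 CPM in mCherryLow and 673, 747 and 498 CPM in mCherryHigh. The summed 10 leukocyte markers ran the other way within DTC, at 3483, 3130 and 6569 CPM. Lyz2 alone was at 3966.5 CPM in DTC 3. Cd74 had the order of the enzyme sum, at 738, 988 and 621 CPM, and Csf1r was highest in DTC 2. The other leukocyte markers were highest in DTC 3. In the mCherry libraries the leukocyte sums ranged from 355 to 2643 CPM. The highest of these sums, in mCherryLow 1, was mostly Tyrobp, an adaptor of myeloid and NK cell receptors, at 1873 CPM. In bulk RNA, fewer cells of a type and less RNA per cell cannot be told apart, and the part of these markers in the DTC results was not tested.

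**Figure D2:**
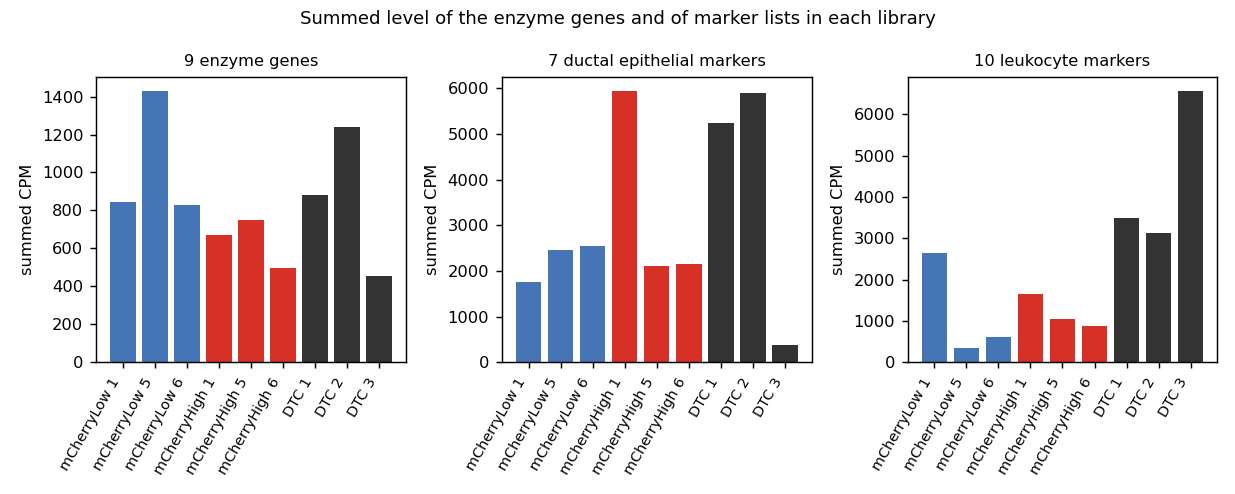
Summed CPM per library (linear axes from 0) of the 9 enzyme genes, 7 ductal epithelial markers and 10 leukocyte markers, with 1 bar per library coloured by group. DTC 3 has the lowest enzyme sum (456 CPM), the lowest ductal sum (384 CPM) and the highest leukocyte sum (6569 CPM).

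The gates mCherryHigh and mCherryLow set cells with a strong Gstt1 reporter against cells with a weak one, both from established metastases. None of the 9 genes passed the test, and none of all 15437 genes tested did (0% called, limma, adjusted p under 0.05). Without adjustment, 1448 genes had a limma p under 0.05, while edgeR called 0 and DESeq2 148 after adjustment, with none of the 9 among them. Rrm2 averaged 153 ± 91.3 CPM in mCherryHigh and 370.2 ± 83.7 CPM in mCherryLow (SD, n = 3 each), which is -1.41 in log2(CPM + 1), the unit of every difference from here on (SE 0.41, limma adjusted p = 0.456). Dck averaged 27.0 ± 12.3 and 72.4 ± 25.7 CPM (SD, n = 3 each), also a difference of -1.41 (SE 0.45, limma adjusted p = 0.486). These were the 2 genes with an unadjusted p under 0.05, which 3.30% of all genes reached on the lower side. Tk1, at -0.62 (SE 0.32, limma adjusted p = 0.589), was the other gene whose groups did not overlap, with mCherryHigh lower in 3 of 9 genes against 5.78% of all genes.

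Among the remaining genes, whose groups overlapped, Umps was at -0.75 (SE 0.38) and Ctps at -0.45 (SE 0.35). Rrm1, Tyms and Dut lay between -0.066 and -0.19, and Rrm2b was at 0.067 with a 95% interval from -1.26 to 1.39. Altogether 8 of 9 differences were below 0, as were 43.6% of all genes, and the median was -0.45 against 0.09 over all genes. The signs of Rrm1, Rrm2b, Tyms and Dut turned in at least 1 alternative fit or with 1 library left out.

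The values of Rrm2 and Dck are also given within code series, to show the size of the differences there. For these genes every mCherryHigh value was under every mCherryLow value. The order of the gates within any series was thus fixed in advance and is no separate test. In the series of mCherryLow 1 and mCherryHigh 1, Rrm2 was at 302 and 87.0 CPM and Dck at 84.3 and 17.1 CPM. In the series of mCherryLow 5, mCherryLow 6 and mCherryHigh 5, Rrm2 was at 464, 345 and 257 CPM and Dck at 90.0, 42.9 and 40.7 CPM, the last 2 with overlapping counting intervals. mCherryHigh 6 had no mCherryLow partner. With the series as a term in the model, the difference was -1.13 for Rrm2 (limma adjusted p = 0.838) and -1.30 for Dck (limma adjusted p = 0.838), while Rrm1 turned to 0.14 and Tyms to 0.38.

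The comparison of DTC with mCherryLow sets cells recovered at 5 days against reporter-low cells of 6-week tumours. Rrm2 was lower in DTC, and Rrm2b and Dut were higher. These 3 of 9 genes passed the test, a share below that of all genes, of which 43.1% were called, 34.2% higher and 8.87% lower. Rrm2 averaged 125 ± 116 CPM in DTC and 370.2 ± 83.7 CPM in mCherryLow (SD, n = 3 each), a difference of -2.02 (SE 0.60, limma adjusted p = 0.0184). Rrm2b averaged 84.6 ± 26.1 and 34.1 ± 19.8 CPM, a difference of 1.41 (SE 0.50, limma adjusted p = 0.0378). Dut averaged 108 ± 22.5 and 50.9 ± 11.5 CPM, a difference of 1.07 (SE 0.37, limma adjusted p = 0.0354). The groups of all 3 genes were apart, as were those of 53.2% of all genes.

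The call for Rrm2 was lost in 2 of the alternatives run, that for Dut in 7 and that for Rrm2b in 9. Without DTC 3 Rrm2 was at -1.26 (limma adjusted p = 0.0487), and edgeR and DESeq2 on the recovered reads gave -2.08 (adjusted p = 0.0199) and -1.96 (adjusted p = 0.00475). It was lost with quantile normalization (-1.77, limma adjusted p = 0.0726) and without DTC 1 (-2.03, limma adjusted p = 0.0647). Dut kept its call without DTC 3 (1.26, limma adjusted p = 0.0263) and lost it without mCherryLow 1, mCherryLow 6, DTC 1 or DTC 2 (0.94 to 1.04, limma adjusted p from 0.0889 to 0.135). It also lost it with edgeR (0.56, adjusted p = 0.254) and DESeq2 (0.72, adjusted p = 0.155) and with median-of-ratios scaling (0.71, limma adjusted p = 0.140). Rrm2b lost its call without mCherryLow 1 (0.95, limma adjusted p = 0.150), mCherryLow 5 (1.44, 0.0614), DTC 1 (1.34, 0.127) or DTC 3 (1.21, 0.118). It was lost too with edgeR (0.75, adjusted p = 0.245) and DESeq2 (0.93, adjusted p = 0.174). With limma it had an adjusted p of 0.0509 without the filter on low values, 0.0685 after quantile normalization and 0.111 with median-of-ratios scaling (1.04). The median of all genes in this comparison was 0.59 with CPM as deposited, 0.29 after scaling by median of ratios and -0.068 after quantile normalization, and the share of calls that were higher was 79.4%, 64.9% and 58.4%. Relative to those medians, Rrm2 lay below and Rrm2b and Dut above under each scaling.

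The other 6 genes did not pass. Tyms was at 0.95 (SE 0.52, 95% interval -0.18 to 2.09), Rrm1 at -0.92 (SE 0.58) and Dck at -0.93 (SE 0.61). Without DTC 3 these were 1.18, -0.23 and -0.23. Umps was at -0.43, Ctps at 0.33 and Tk1 at -0.27, and without DTC 3 these were 0.023, 1.00 and 0.51. The values of Tyms turned on mCherryLow 5, without which it was at 1.61 (SE 0.42, limma adjusted p = 0.0122). Over the 9 genes the median was -0.27 against 0.59 over all genes, and without DTC 3 it was 0.51 against 0.32. The median of all genes depends on the filter. With all DTC libraries it was 0.21 over genes with at least 5 CPM in 3 of the 6 libraries.

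**Figure D3:**
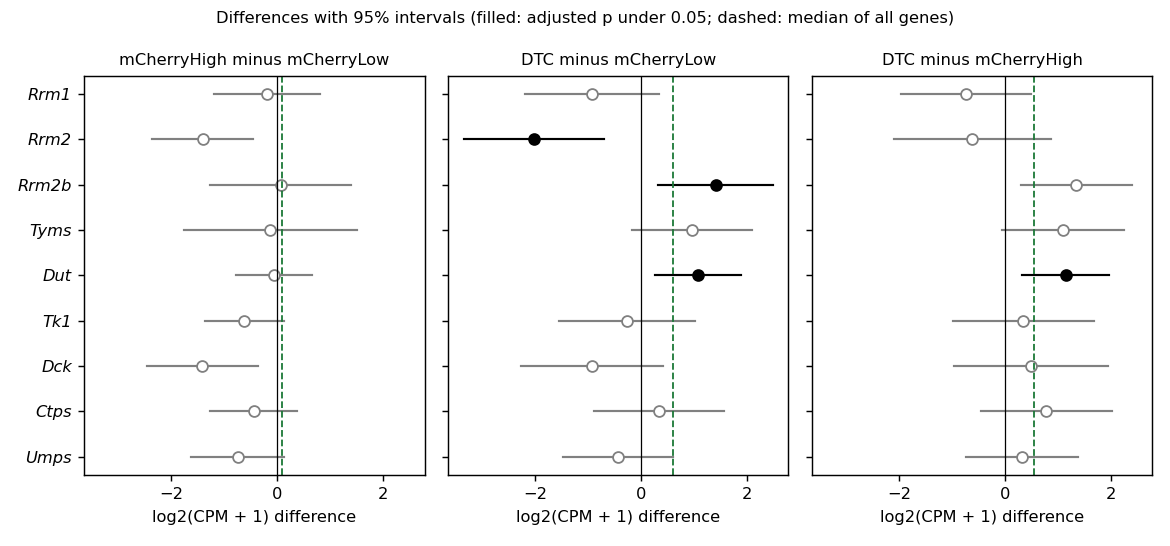
Differences of log2(CPM + 1) with 95% intervals for the 9 genes in each comparison; filled points have an adjusted p under 0.05 and the dashed line is the median of all genes tested. Points filled are Rrm2 (-2.02), Rrm2b (1.41) and Dut (1.07) for DTC minus mCherryLow and Dut (1.14) for DTC minus mCherryHigh.

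The comparison of DTC with mCherryHigh shares its DTC libraries with the preceding comparison and tests how the 2 non-reference groups differ. Dut was higher in DTC, at 108 ± 22.5 against 48.1 ± 6.42 CPM (SD, n = 3 each), a difference of 1.14 (SE 0.37, limma adjusted p = 0.0386). It was the 1 gene of 9 called, against 30.2% of all 19700 genes tested (23.0% higher, 7.19% lower). Of those calls 76.2% were higher, and 58.4% with quantile normalization. Without DTC 3 Dut was at 1.33 (limma adjusted p = 0.0341), with DESeq2 at 0.99 (adjusted p = 0.0459) and with edgeR at 0.80 (adjusted p = 0.140). Its call was lost without mCherryHigh 5, mCherryHigh 6, DTC 1 or DTC 2 (1.04 to 1.15, limma adjusted p from 0.0892 to 0.139) and with median-of-ratios scaling (0.95, limma adjusted p = 0.0655). Rrm2b was at 1.34 (SE 0.48, limma adjusted p = 0.0537), and passed without mCherryHigh 6 (1.76, 0.0280) or DTC 2 (1.60, 0.0458), and without DTC 3 it was at 1.14 (0.144). Tyms was at 1.09 (SE 0.52, limma adjusted p = 0.138), and passed without mCherryHigh 1 (1.67, 0.0152), and without DTC 3 it was at 1.31. Ctps was at 0.78 (SE 0.56, limma adjusted p = 0.313), and without DTC 3 at 1.45 (limma adjusted p = 0.0363). Rrm2 was at -0.61 (SE 0.68, 95% interval -2.10 to 0.87), and without DTC 3 at 0.15. Rrm1 was at -0.74, Dck at 0.48, Tk1 at 0.35 and Umps at 0.32, and without DTC 3 these were -0.045, 1.18, 1.12 and 0.77, none of them called. The median of the 9 was 0.48 against 0.55 over all genes, and without DTC 3 it was 1.14 against 0.45. With all DTC libraries, genes with at least 5 CPM in 3 of the 6 libraries had a median of 0.23.

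Markers of other cells were higher in DTC beside these results. Against mCherryLow, limma called 8 of 10 leukocyte and macrophage markers, 4 of 7 T, B and NK cell markers, 7 of 7 endothelial markers and 3 of 6 lung epithelial markers higher. Over all genes it called 34.2% higher and 8.87% lower. The other 3 T, B and NK cell markers and 2 of the lung epithelial markers did not pass the filter on low values, and C1qa of the leukocyte list, Cd3e, Cd3g, Cd4, Sftpc and Sftpb passed it through the DTC libraries alone. The direction of these genes was thus fixed by the filter, and their calls are no separate support. Outside them, Ms4a1 was the T, B and NK cell marker called and Scgb1a1 the lung epithelial one. Of 5 fibroblast and pericyte markers, 1 was called higher, and of 7 ductal epithelial markers 0 were called higher and 1, Cldn4, lower. Without DTC 3 the calls higher were 7 leukocyte, 1 T, B and NK cell, 6 endothelial, 1 lung epithelial and 1 fibroblast and pericyte marker, and the 6 genes that passed through DTC alone were not tested. Over all 15753 genes tested without DTC 3, 3222 were called higher and 1165 lower. In the ductal list, 2 were then called higher, the keratins Krt8 (2.34, limma adjusted p = 0.00243) and Krt18 (2.16, 0.00329), and Cldn4 stayed lower. The 7 T, B and NK cell markers in the table summed to 49.7 to 197 CPM in DTC, 2.36 to 10.9 CPM in mCherryLow and 5.61 to 12.4 CPM in mCherryHigh. Cd3e was at 0 in all mCherryLow libraries and Cd3g in all mCherryHigh libraries. The endothelial sum was 170 to 284 CPM in DTC, 14.6 to 23.6 CPM in mCherryLow and 32.9 to 51.3 CPM in mCherryHigh. Lung epithelial markers summed to 62.8 to 377 CPM in DTC, 5.07 to 19.9 CPM in mCherryLow and 12.4 to 39.5 CPM in mCherryHigh. Fibroblast and pericyte markers summed to 71.1 to 180.4 CPM in DTC, 25.4 to 64.9 CPM in mCherryLow and 57.5 to 88.2 CPM in mCherryHigh. Their part in the Rrm2, Rrm2b and Dut differences was not tested.

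Other genes of nucleotide metabolism were described from fixed lists. For DTC against mCherryLow, the counts called stand beside 34.2% of all genes called higher and 8.87% called lower. In pyrimidine and CTP synthesis beside the 9 genes, 0 of 6 were called higher and 1 lower in DTC against mCherryLow: Ctps2, the second CTP synthase, averaged 25.7 ± 10.3 CPM in DTC and 61.3 ± 23.5 CPM in mCherryLow (SD, n = 3 each), a difference of -1.24 (SE 0.47, limma adjusted p = 0.0498). Ctps2 was also lower against mCherryHigh (-1.38, limma adjusted p = 0.0374), where its group mean was 65.5 CPM. Ctps was at 0.33 and 0.78 in the same comparisons. Cad, which carries out the first steps of pyrimidine synthesis, was at -1.03 in DTC minus mCherryLow (limma adjusted p = 0.0950). On the recovered reads edgeR called both Cad and Ctps2 lower in that comparison, beside 3098 lower of all 18701 genes.

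Of all genes, 34.2% were called higher and 8.87% lower in DTC against mCherryLow. In the list of salvage enzymes, kinases and the thymidylate cycle, 0 of 15 were called higher and 3 lower. They were Txnrd1 (-1.60, limma adjusted p = 0.00353), Glrx (-1.76, 0.0123) and Mthfd1 (-1.73, 0.0199). Txnrd1 and Glrx belong to the thioredoxin and glutaredoxin systems that return electrons to ribonucleotide reductase, and Mthfd1 makes the folate cofactor of thymidylate synthesis. Txnrd1 was at 464, 410 and 418 CPM in mCherryLow and at 115, 209 and 116 CPM in DTC. Without DTC 3, Txnrd1 and Glrx kept their calls against mCherryLow and Mthfd1 did not.

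In pyrimidine and dNTP breakdown, 3 of 11 genes were called higher and 2 lower in DTC against mCherryLow. Over all genes the shares were 34.2% higher and 8.87% lower. Dpyd, the rate-limiting enzyme of pyrimidine breakdown, was at 0.975, 0.657 and 0.927 CPM in mCherryLow, at 6.21, 1.94 and 2.86 CPM in mCherryHigh and at 41.1, 28.3 and 117 CPM in DTC. It passed the filter on low values through the DTC libraries alone, so its direction was fixed by the filter, and it differed by 4.83 from mCherryLow (SE 0.63, limma adjusted p = 4.30e-04). Upb1, which acts last in the same chain, differed by 4.24 (limma adjusted p = 6.44e-04), and Dpys, which acts between them, by 1.66 (limma adjusted p = 0.0376). On the recovered reads edgeR called Dpyd and Upb1 higher and did not call Dpys. Dpyd and Upb1 were highest in DTC 3, at 117 and 106 CPM. Without DTC 3, Upb1 kept its call, Dpys lost it, and Dpyd, at 41.1 and 28.3 CPM in the DTC libraries left, was not tested because 2 libraries in all reached 1 CPM. Tymp, thymidine phosphorylase (-2.18, limma adjusted p = 0.00572), and Nt5e, the cell-surface nucleotidase CD73 (-1.97, limma adjusted p = 0.0142), were lower.

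In purine synthesis, limma called 2 of 17 genes higher and 1 lower in DTC against mCherryLow, and edgeR on the recovered reads 1 higher and 6 lower. Over all genes limma called 34.2% higher and 8.87% lower, and edgeR called 4559 of 18701 higher and 3098 lower. Without DTC 3, limma called 3 of the 17 higher, Atic among them, and 1 lower, beside 3222 higher and 1165 lower of all 15753 genes. Pfas, of the de novo pathway, was at 33.6, 38.6 and 19.4 CPM in mCherryLow and at 129, 122 and 60.6 CPM in DTC (1.71, limma adjusted p = 0.00925). The 2 IMP dehydrogenases that lead to GMP went in opposite directions. Impdh2 was higher (1.53, limma adjusted p = 0.0177) and Impdh1 lower (-1.17, limma adjusted p = 0.0274). With edgeR, Pfas was called higher and Impdh1 lower, and Impdh2 was not called. Medians were -0.04 for the pyrimidine list, -0.48 for salvage, -0.10 for breakdown and -0.70 for purine synthesis, against 0.59 over all genes. Without DTC 3 they were 0.060, 0.064, 0.040 and -0.31, against 0.32. With all DTC libraries, genes with at least 5 CPM in 3 of the 6 libraries had a median of 0.21.

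**Figure D4:**
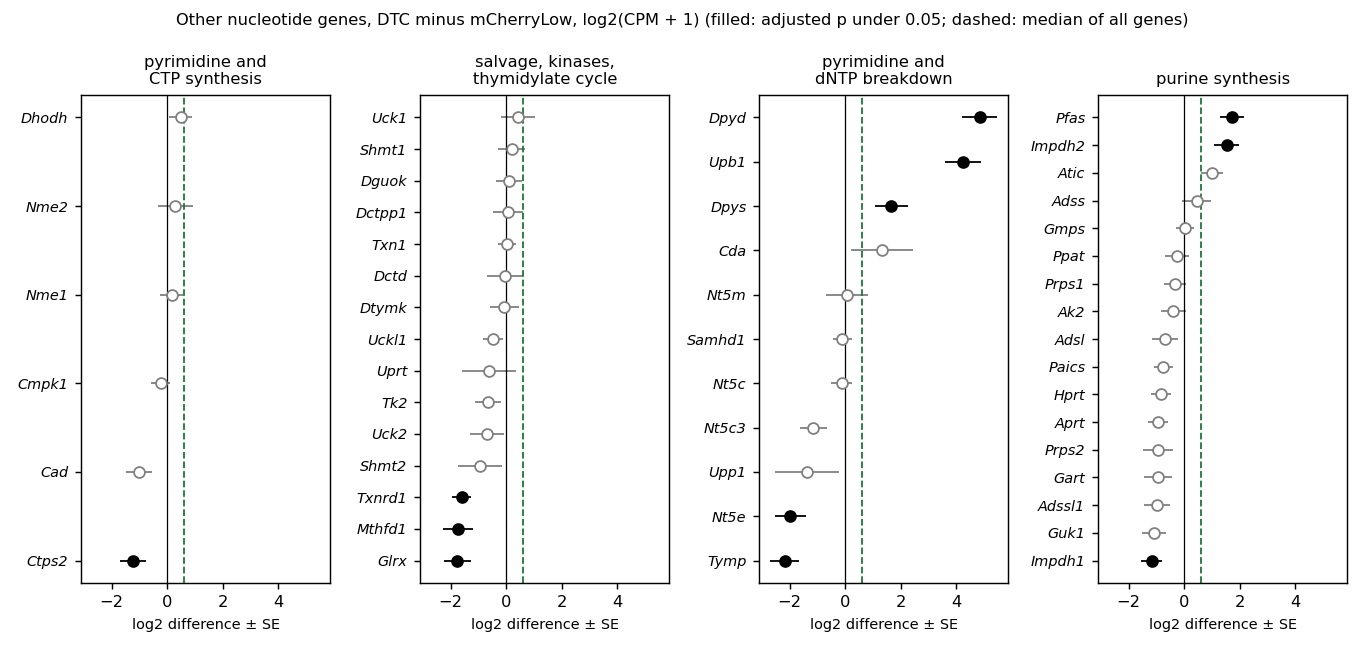
Differences of log2(CPM + 1), DTC minus mCherryLow, with SE bars, for the other nucleotide genes in 4 lists (6, 15, 11 and 17 genes from left to right); filled points have an adjusted p under 0.05 and the dashed line is the median of all genes (0.59). Dpyd (4.83) and Upb1 (4.24) lie farthest to the right and Tymp (-2.18) farthest to the left.

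Of 16 S phase and proliferation markers, limma called 0 in DTC against mCherryLow, with and without DTC 3, and edgeR on the recovered reads called 5 lower: E2f1, Mcm2, Mcm5, Gins2 and Cdt1. Over all 18701 genes tested there, edgeR called 4559 higher and 3098 lower. With limma 3 of the 16 markers had an unadjusted p under 0.05, all lower, as did 12.8% of all genes on that side. Gins2, a part of the replicative helicase, was nearest with limma at -1.45 (adjusted p = 0.0506), and without DTC 3 it was at -0.81 (limma adjusted p = 0.147). Mki67, the proliferation antigen, was at -0.05 and Pcna, the replication clamp, at 0.58 in that comparison. Of 10 p53 target genes, 1 was called higher, the RNA-binding factor Zmat3 (3.10, limma adjusted p = 0.00264), and 2 lower, Ccng1 (-1.02, 0.0315) and Phlda3 (-1.20, 0.0431). Limma called 34.2% of all genes higher and 8.87% lower. In this list 8 of 10 differences were below 0, as were 37.4% of all genes. The median was -0.42 against 0.59 over all genes, and without DTC 3 -0.63 against 0.32. With edgeR 1 of the p53 targets was called higher and 3 lower, Sesn2 among the latter, beside 4559 higher and 3098 lower of all 18701 genes. Without DTC 3 Zmat3 and Ccng1 kept their calls and Phlda3 lost its own (-0.72, limma adjusted p = 0.114). Rrm2b, a p53 target as well, was called higher with all DTC libraries and not without DTC 3. Against mCherryHigh, Zmat3 (3.08) and Bbc3 (3.72) were called higher and Ccng1 (-1.20) and Phlda3 (-1.40) lower. Of all genes, limma called 23.0% higher and 7.19% lower in that comparison. Without DTC 3 Phlda3 was lost there (-0.92, limma adjusted p = 0.0560) and Cdkn1a was called lower (-1.01, limma adjusted p = 0.0496), while Pcna and Ccna2 of the S phase list were called higher (1.32 and 1.43, limma adjusted p of 0.0414 and 0.0487). In that fit limma called 2257 of all 17709 genes higher and 1008 lower.

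Between the mCherry gates 0 genes of any of these lists were called. The salvage list had 14 of 15 differences below 0, with a median of -0.50 against 0.09 over all genes. Dctd, the dCMP deaminase that feeds dUMP to Tyms, was at 19.0, 17.8 and 10.7 CPM in mCherryLow and at 1.55, 5.41 and 7.36 CPM in mCherryHigh (-1.67, limma adjusted p = 0.488). Its value in mCherryHigh 1 is 1 read. In the S phase list 12 of 16 were below 0 (median -0.30), led by Gins2 (-1.89) and the helicase subunit Mcm6 (-1.62), both with a limma adjusted p of 0.444. The other 4 were above 0, Top2a and Mki67 among them. Top2a averaged 347 CPM in mCherryHigh and 218 CPM in mCherryLow, and Mki67 141 and 109 CPM. Of all genes, 43.6% were below 0.

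The genes whose level over the 9 libraries was most like that of Rrm2 were Copb2, Dcun1d2, Idh3a, Puf60 and Ddx42 (Pearson r from 0.953 to 0.971 on log2(CPM + 1), among 10431 genes with a mean of at least 10 CPM). For Rrm2b they were Plvap, Rasal2, Nkiras1, Ing2 and Rhoj (r from 0.944 to 0.955). Plvap, a protein of endothelial diaphragms, averaged 1.44, 1.67 and 28.2 CPM in mCherryLow, mCherryHigh and DTC. These coefficients are descriptions over libraries that differ together in group, series and depth.

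Some counts could include reads of other genes that share stretches of sequence. By GENCODE transcripts (M21), all 50-base windows of Rrm1, Dut and Dck were unique to the gene, against 89.0% for Rrm2b and Tyms, 92.7% for Tk1, 93.5% for Rrm2, 95.2% for Umps and 98.7% for Ctps. Umps shared windows with Gm15829, Rrm2b with Gm8616 and Gm49085, and Tyms with Tyms-ps and other genes such as Olfr338. Exons of Rrm2b, Umps and Tk1 overlap those of Gm49085, Gm15829 and Afmid on the opposite strand. The library kit does not mark strand, so reads of these overlaps cannot be told apart.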

How the data were processed

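RNA of 9 libraries in 3 groups of 3 was extracted with the RNAqueous-Micro kit, and libraries were made with SMART-seq v4 and Nextera XT, per the labels' protocols. Reads were mapped to mm9, per the submitters' processing notes. Aligner and counter: not given in the sources used here. Values are the CPM that the authors deposited for 24012 genes in 9 columns, 0 of them unmatched to a sample. In each column 100% of values were whole multiples of 1 read within 0.01 read, so reads and totals were recovered. With 3 reads as the limit that a count of 0 allows, that limit is 4.66 CPM in mCherryHigh 1 and 0.253 CPM in mCherryLow 6.

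Each comparison was fitted by itself with limma 3.58.1 (R 4.3.3) on log2(CPM + 1), by group, two-sided, with the mean-variance trend of limma. A gene entered when 3 or more of the 6 libraries compared held 1 CPM or more. Benjamini-Hochberg adjustment ran over all genes tested, at a threshold of 0.05. A difference on this scale understates the change of low genes. Ratios of gene pairs were compared with exact permutation tests (scipy 1.17.1).

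The 9 genes, the 6 pathway lists beside them and the 6 marker lists were chosen with earlier results of these data known. Named are the 9 genes, up to 4 genes per list and comparison with the smallest p, and Gstt1 and Sirt6 as label checks. A gene of the salvage list was left out of its counts and is not reported here. Txnrd1, Dpyd and Pfas values per library, Dpys, Mki67, Top2a, Pcna, Tyrobp, Lyz2, Cd74, Csf1r, Krt8, Krt18, Krt19, Epcam, Cdh1, Muc1, Cldn4, C1qa, Cd3e, Cd3g, Cd4, Ms4a1, Sftpc, Sftpb, Scgb1a1, Atic, Cdkn1a (against DTC) and Mcm5 (DTC minus mCherryLow) were chosen after their values were seen. Genes most like Rrm2 and Rrm2b exclude predicted and ribosomal protein genes.

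Alternatives were pseudocounts of 0.1 and 5, other filters, quantile and median-of-ratios scaling, array weights, a joint fit of the 9 libraries, a replicate block or the code series as a term, and leaving out each library. Chosen after seeing the data were count tests on those reads (edgeR 4.0.16, DESeq2 1.42.0) and CPM rescaled without Gm10800, Gm10801 and Lars2. edgeR called 0, 7657 and 5242 genes and DESeq2 148, 8087 and 6313 genes in mCherryHigh minus mCherryLow, DTC minus mCherryLow and DTC minus mCherryHigh. Promoter sequence and its coordinates are from RefSeq (GRCm38.p6), a later build than that of the data, so no other coordinates are given. Transcript lengths and 50-base windows are from GENCODE M21. The scripts were tested on simulated data.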

Additional observations from a re-analysis of the deposited data

How the results depend on the processing

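Between the mCherry gates, 0 of the 9 genes were called in any alternative run, and DESeq2 called 148 of all genes. For DTC minus mCherryLow, 8064 genes were called, 4464 with quantile normalization and 3628 to 7008 with 1 library left out. Of the 9 genes, 3 were called there, 1 with quantile normalization, median-of-ratios scaling, edgeR or DESeq2, and 0 to 3 with 1 library left out. For DTC minus mCherryHigh, 5949 genes were called, 2975 with quantile normalization, 9545 with array weights and 2538 to 6997 with 1 library left out. There 1 of the 9 was called, 0 with median-of-ratios scaling or edgeR, 2 with a pseudocount of 5 or with CPM rescaled without Gm10800, Gm10801 and Lars2, 4 with array weights, and 0 to 2 with 1 library left out. The share of calls that were higher was 59.5% with edgeR and 63.6% with DESeq2 for DTC minus mCherryLow (79.4% with limma), and 59.6% with edgeR for DTC minus mCherryHigh (76.2%).

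Signs turned for uncalled values alone. For mCherryHigh minus mCherryLow, these were Rrm1 (0.14 with the code series as a term, and -0.47 to 0.25 with 1 library left out), Tyms (0.38 with the code series, -0.71 to 0.52 with 1 library left out) and Dut (-0.20 to 0.10 with 1 library left out). Rrm2b there was -0.087 with median-of-ratios scaling, -0.090 with edgeR, -0.089 with DESeq2, -0.21 with the code series, -0.13 with libraries 5 and 6 alone, and -0.39 to 0.49 with 1 library left out. For DTC minus mCherryLow, Tk1 was 0.23 with array weights and -0.71 to 0.51 with 1 library left out. Ctps was -0.029 with median-of-ratios scaling and -0.18 to 1.00, and Umps -0.82 to 0.023, with 1 library left out. For DTC minus mCherryHigh, the ranges with 1 library left out were -1.37 to 0.15 for Rrm2, -0.090 to 1.12 for Tk1, -0.17 to 1.18 for Dck and -0.074 to 0.77 for Umps. The Tk1 to Dck difference there ranged from -0.44 to 0.080. The cause was not tested.

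With the label number as a replicate block, 0 genes were called between the mCherry gates, and Rrm2 was at -1.41 (limma adjusted p = 0.566), with exact p = 0.25 for the paired ratios (Rrm2 to Rrm2b -1.47, Tk1 to Dck 0.79). Same-numbered libraries had correlations of their deviations across genes of -0.20, -0.02 and 0.27, and other pairs ranged from -0.44 to 0.33. So few values cannot decide whether the numbers mark pairs. The titles match by letter as well as number but do not say what either marks, so the main fit was unpaired. No paired analysis was possible for DTC because its numbers share only 1 with the other groups. Depth limits mCherryHigh 1 and the DTC libraries, where single values rest on as few as 11 and 12 reads.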
